A study of Mus musculus with 2 samples.

Results

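Granule neurons of the dentate gyrus were identified in 2 single-cell libraries of mouse hippocampus and chosen by their measured counts of UMIs (unique molecular identifiers, each marking 1 captured transcript). A barcode was taken as a granule neuron when Snap25 and Syt1, genes of synaptic vesicle release, had at least 2 UMIs together, when C1ql2 had at least 1, and when C1ql2 and C1ql3 had at least 3 together. Such a barcode also had to hold under 3 UMIs of Ndnf, Nhlh2 and Lhx1 (Cajal-Retzius cells), under 10 of Mog, Mag, Ermn, Opalin and Cldn11 (myelin) and under 8 of Folr1, Kcnj13, Sostdc1, Calml4, Cox8b and Kl (choroid plexus). The rule found 282 of 4572 GlaKO barcodes (6.17%, exact Clopper-Pearson 95% interval 5.49 to 6.90%) and 270 of 5443 wt barcodes (4.96%, 4.40 to 5.57%), which is 552 of 10015 in all.

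The GlaKO library came from 57-week-old mice with the gene Gla knocked out, a model of Fabry disease, in which the lysosomal enzyme alpha-galactosidase A is missing. The wt library came from littermate controls of the same age. All animals were anaesthetised with xylazine and ketamine and perfused with saline, and the hippocampi were dissociated with enzymes, cleared of debris on a density gradient and sorted with the dye 7-AAD for live cells. Each genotype is 1 library, made from 10000 loaded cells, and the labels give neither the number nor the sex of the animals behind it. No test between genotypes was therefore possible, and every difference below is one between 2 libraries, with 95% intervals that cover counting error only.

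Granule neurons are the principal excitatory cells of the dentate gyrus. They receive the main cortical input to the hippocampus and pass it through large mossy-fibre synapses to CA3 pyramidal neurons and to mossy cells of the hilus. The transcription factor Prox1 sets and keeps their identity, and the adult gyrus adds young granule neurons throughout life. C1ql2 and C1ql3 encode secreted C1q-like proteins that mossy fibres release into the synaptic cleft, where they bind neurexin 3 and kainate receptors.

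The promoters of the genes that define these cells are printed to show the sequence around the start of each, taken from RefSeq on GRCm38.p6 with 250 bases before and 50 after the start, in the direction of transcription. Capitals mark CANNTG, the E-box bound by basic helix-loop-helix factors such as Neurod1, searched on both strands. The genes lie on chromosome 1 (C1ql2 and Prox1, the second with 2 annotated starts) and chromosome 2 (C1ql3).
C1ql2, chr1:120340332-120340631, plus strand: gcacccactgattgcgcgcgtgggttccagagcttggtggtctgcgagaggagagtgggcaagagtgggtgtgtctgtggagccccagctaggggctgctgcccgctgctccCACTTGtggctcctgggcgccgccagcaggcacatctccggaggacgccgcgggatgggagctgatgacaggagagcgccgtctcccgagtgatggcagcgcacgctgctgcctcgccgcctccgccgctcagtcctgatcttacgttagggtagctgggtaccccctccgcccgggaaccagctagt
C1ql3, chr2:13010815-13011114, minus strand: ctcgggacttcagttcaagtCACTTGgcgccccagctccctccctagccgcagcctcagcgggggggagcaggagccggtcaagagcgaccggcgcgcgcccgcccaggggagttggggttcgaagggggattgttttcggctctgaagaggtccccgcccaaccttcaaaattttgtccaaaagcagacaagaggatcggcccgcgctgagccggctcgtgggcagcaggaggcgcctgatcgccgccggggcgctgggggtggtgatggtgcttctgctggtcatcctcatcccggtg
Prox1, first start, chr1:190170778-190171077, minus strand: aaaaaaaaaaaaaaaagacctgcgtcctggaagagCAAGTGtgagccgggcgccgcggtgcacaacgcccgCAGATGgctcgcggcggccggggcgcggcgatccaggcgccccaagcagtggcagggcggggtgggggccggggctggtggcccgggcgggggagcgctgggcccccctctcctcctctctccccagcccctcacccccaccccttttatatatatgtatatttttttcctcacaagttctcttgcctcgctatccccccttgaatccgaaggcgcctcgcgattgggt
Prox1, second start, chr1:190169466-190169765, minus strand: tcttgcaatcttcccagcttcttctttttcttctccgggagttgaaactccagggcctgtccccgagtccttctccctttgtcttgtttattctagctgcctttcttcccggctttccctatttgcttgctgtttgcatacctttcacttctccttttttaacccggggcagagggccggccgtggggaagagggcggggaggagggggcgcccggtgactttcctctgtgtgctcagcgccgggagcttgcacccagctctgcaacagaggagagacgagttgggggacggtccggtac

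C1ql2 and C1ql3 each held 1 E-box in this window, both with the letters CACTTG. The first Prox1 start held 2, CAAGTG and CAGATG, and the second held 0. Of all promoters given by RefSeq, 23756 of 32851 (72.3%) held CANNTG, against 17 of the 26 promoters (65.4%) that were matched for 19 of 21 genes, namely C1ql2, C1ql3 and the granule cell identity list. CAGATG stood in 4 of those 26 promoters (15.4%) and in 5635 of all of them (17.2%). These are matches of letters only.

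Sequencing was deep enough to count many genes in each cell. A granule neuron held a median of 6108.5 UMIs from 3109.5 genes in the GlaKO library (1840 to 21264 UMIs) and 4678.5 UMIs from 2641 genes in the wt library (1388 to 16690). Together they held 1899555 UMIs in GlaKO and 1410834 in wt, out of 29914106 and 31929688 in the libraries. The median mitochondrial share was 2.00% in GlaKO and 2.23% in wt. A gene with 0 UMIs in every granule neuron could still have had a UMI in up to 1.06% of GlaKO or 1.11% of wt cells like these. The libraries shared 6 barcodes, and 0 of these were granule neurons.

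Gla itself was too scarce in granule neurons to check the genotype. It had 19 UMIs in 19 GlaKO cells and 14 UMIs in 13 wt cells, or 10.0 and 9.92 CPM (a gene's UMIs scaled to the total UMIs of its group of cells), a log2 ratio of 0.01 (-1.06 to 1.12). Over all other barcodes the GlaKO to wt log2 ratio was -0.79. The labels do not say which part of the gene was removed, and 3' tags outside that part would check nothing.

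Of all barcodes that the rule or a simple neuronal limit called neurons, granule neurons were 67.3% of 419 in GlaKO (62.6 to 71.8%) and 75.6% of 357 in wt (70.8 to 80.0%). The remainder was 89 GlaKO and 34 wt other neurons, with at least 10 UMIs of Snap25 and Syt1, and 48 GlaKO and 53 wt Cajal-Retzius cells. That limit of 10 was set on other neurons alone. Of the granule neurons 54 in GlaKO and 81 in wt held under 10 such UMIs, so these shares rest on unlike limits. The other neurons held 39 GlaKO and 13 wt cells with Neurod6, a pyramidal neuron gene, and 6 GlaKO and 2 wt cells with at least 3 UMIs of Gad1 and Gad2, the enzymes of GABA synthesis. Dissociation and live-cell sorting can set how many neurons of each kind reach a library.

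Some barcodes that met the rule also carried the genes of another cell type. A barcode was called mixed when markers of oligodendrocyte precursors, astrocytes, microglia, vascular cells or T cells reached 5 UMIs or those of oligodendrocytes reached 20, limits set after the data were seen. That held for 23 GlaKO (8.16%) and 20 wt granule neurons (7.41%), which had medians of 8081 and 7402.5 UMIs, against 5797 and 4446 in the 259 GlaKO and 250 wt others. Their median sum of C1ql2 and C1ql3 was 7 UMIs in GlaKO and 16.5 in wt, against 22 and 20 in the others.

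The mixed barcodes differed in kind between the libraries. Those with oligodendrocyte precursor markers numbered 14 in GlaKO and 5 in wt, and their precursor markers reached 155 and 78 UMIs in a cell. In these cells Snap25 and Syt1 had a median of 2 UMIs in GlaKO and 3 in wt, at the floor of the rule, and Prox1 was seen in 8 of 14 and 2 of 5. Those with microglial markers numbered 6 in GlaKO and 8 in wt. What these barcodes hold was not tested, and results are given with and without them.

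The summed levels of the marker lists follow these counts. Precursor markers came to 663 CPM in GlaKO and 231 CPM in wt granule neurons, and to 62.9 and 38.5 CPM without the mixed barcodes. Microglial markers came to 154 CPM in GlaKO and 383 CPM in wt, and to 66.4 and 66.7 CPM without them. Vascular markers were at 4.74 CPM in GlaKO and 49.6 CPM in wt, and at 4.15 and 3.93 CPM without the mixed barcodes. Oligodendrocyte markers stayed apart, at 607 CPM in GlaKO and 380 CPM in wt without the mixed barcodes.

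With a C1ql2 and C1ql3 sum of exactly 3, just inside, 6 GlaKO and 4 wt cells had Prox1 in 3 and 1 of them, and with a sum of 2, just outside, 5 GlaKO and 6 wt barcodes had it in 2 and 1. With 2 or 3 UMIs of Snap25 and Syt1, 13 barcodes of each library lay inside, of which 11 in GlaKO and 4 in wt were mixed and 8 in GlaKO and 5 in wt had Prox1. With 0 or 1 such UMIs, 66 GlaKO and 50 wt barcodes met every other condition and stayed outside, and 63 and 47 of them carried another type's markers, with Prox1 in 16 and 8.

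**Figure D1:**
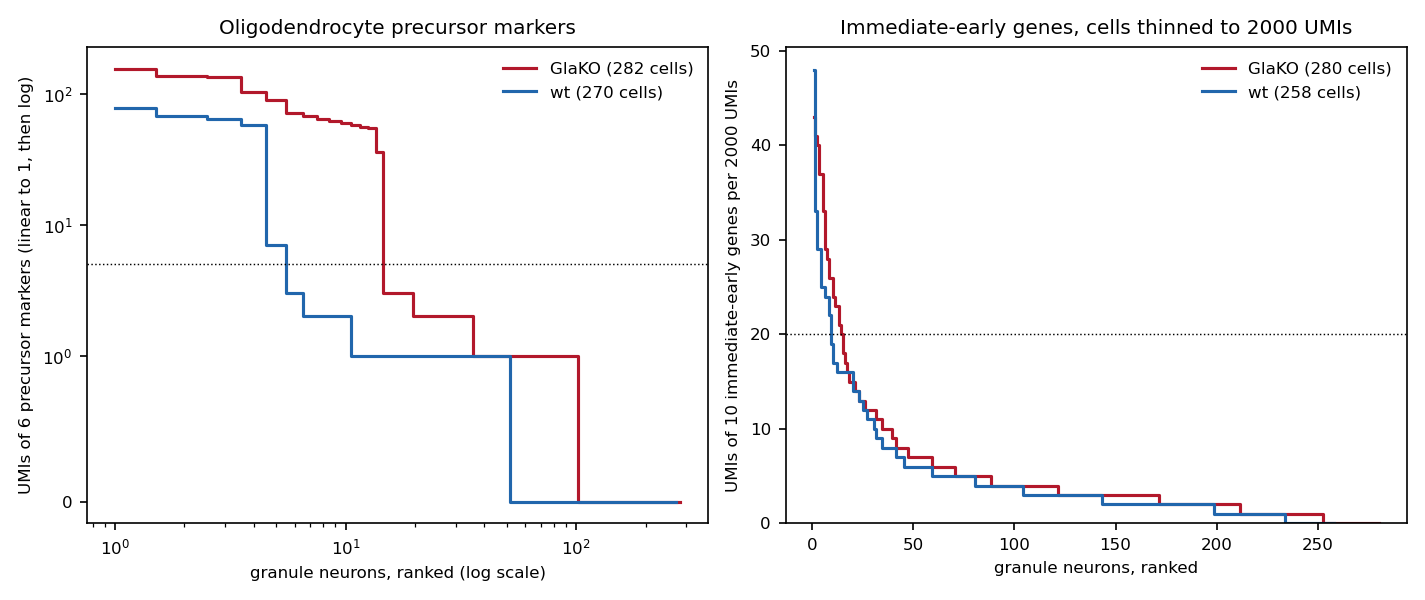
UMIs per granule neuron, with cells ranked from highest to lowest. The left plot shows 6 oligodendrocyte precursor markers on a scale linear to 1 and logarithmic above it, where 14 GlaKO and 5 wt cells lie above the dotted limit of 5 UMIs. The right plot shows 10 immediate-early genes per 2000 UMIs in 280 GlaKO and 258 wt cells, where the curves nearly coincide and 15 GlaKO and 9 wt cells reach the dotted limit of 20.

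The granule neuron markers that come with the label were checked first. C1ql2, C1ql3 and Syt1 are part of the rule, so only Grin2b and Nrgn say anything further. Grin2b, a subunit of the NMDA-type glutamate receptor, was at 1413 CPM in GlaKO and 1349 CPM in wt granule neurons, seen in 268 of 282 and 265 of 270 cells. Nrgn, a calmodulin-binding protein of dendritic spines, was at 3811 CPM in GlaKO and 3736 CPM in wt, in 268 and 260 cells. Both were also high in other neurons, Grin2b at 913 CPM in GlaKO and 1052 CPM in wt and Nrgn at 2969 and 2428 CPM, so these genes mark neurons in general.

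Genes known for granule cell identity that the rule did not use did set these cells apart. Of the 19 on the list, 17 were higher in granule than in other neurons by more than 1.5-fold in both libraries, with median log2 ratios of 2.49 in GlaKO and 2.60 in wt, against 0.06 and 0.07 over all 7380 genes with at least 100 UMIs. By the same measure 732 of all genes (9.92%) were higher and 597 (8.09%) lower. The rule chose these cells with C1ql2 and C1ql3, so every ratio of granule over other neurons is a description of the cells chosen and no test of them. Other neurons were also chosen at a higher limit of Snap25 and Syt1, 10 UMIs against 2.

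Prox1 was at 367 CPM in GlaKO and 328 CPM in wt granule neurons, against 37.8 and 68.6 CPM in other neurons. It was seen in 80.9% of GlaKO and 71.5% of wt granule neurons. With every cell thinned to 2000 UMIs, to put shares on 1 depth, it was seen in 51.8% of 280 GlaKO (45.8 to 57.8%) and 42.2% of 258 wt granule neurons (36.1 to 48.5%). The thinned share was 5.68% in GlaKO and 9.09% in wt among other neurons, and 3.87% and 4.18% among barcodes with microglial markers, given as a background level. Prox1 was not limited to neurons here, since barcodes with oligodendrocyte markers held it at 237 CPM in GlaKO and 195 CPM in wt, in 65.0% and 55.9% of them.

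Calb1, the calcium buffer calbindin that mature granule neurons fill with, was at 305 CPM in GlaKO and 409 CPM in wt granule neurons, against 93.6 and 119 CPM in other neurons. Its thinned share was 33.6% of GlaKO (28.1 to 39.4%) and 44.6% of wt cells (38.4 to 50.9%), and 0.41% and 0 among microglial barcodes. Stxbp6, which binds SNARE proteins of membrane fusion, was at 693 CPM in GlaKO and 663 CPM in wt granule neurons, against 78.8 and 41.1 CPM in other neurons. These genes were seen in granule neurons of both libraries at several times their level in other neurons.

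Others on the list were scarcer and also divided, with few UMIs in other neurons. Plk5, a kinase-like gene of neurons, was at 194 CPM in GlaKO and 216 CPM in wt granule neurons, against 16.4 and 9.14 CPM in other neurons. Those 2 values of Plk5 in other neurons rest on 10 UMIs in GlaKO and 2 in wt. Trpc6, a cation channel opened by diacylglycerol, was at 154 CPM in GlaKO, against 9.85 CPM in other neurons. In wt Trpc6 was at 169 CPM, at least 12.35-fold higher than in other neurons, which had 0 UMIs (bound taken at 3 counts over the group). Dsp, the desmosomal protein desmoplakin, was at 77.4 CPM in GlaKO and 99.9 CPM in wt, against 16.4 and 13.7 CPM. The 2 genes that did not pass in both libraries were Ncald, with log2 ratios of 0.58 in GlaKO and 0.25 in wt, and Npnt, with 2.49 and -0.01.

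By a rule on size, 20 genes outside the membership rule had the highest ratios of granule over other neurons in the library where the ratio was smaller. They included Fbxl7 and Fbxo32, parts of ubiquitin ligases, Plekha2, Arsj, Gpc4 (a cell-surface heparan sulphate proteoglycan), Csgalnact1 (chondroitin sulphate synthesis), Emx2 (a cortical transcription factor), Zfhx4, Gprc5b and Smoc2, together with Trpc6, Plk5, Stxbp6 and Lct of the list. The minimum of 100 UMIs could be met by granule neurons alone, so this ranking favours genes with few UMIs in other neurons. There Fbxl7 had 1 UMI in GlaKO and 0 in wt, Plekha2 and Fbxo32 each 2 and 0, Arsj 2 and 1, and Emx2 3 and 0. Stxbp6 had more, with 48 and 9. In wt the bound taken at 3 counts was only 3.67-fold for Fbxl7 and 2.43-fold for Emx2. Smoc2, a secreted matrix protein, was at 85.8 CPM in GlaKO and 73.7 CPM in wt granule neurons, against 9.85 and 9.14 CPM in other neurons. Its values in other neurons rest on 6 UMIs in GlaKO and 2 in wt. Prox1os overlaps Prox1 on the opposite strand, and its ratio of 3.29 in GlaKO may not be separate from that of Prox1 if strand was not used in counting.

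The mixed barcodes carried 5 of those 20 names. Neu4, Scrg1, Gjc3, Pdgfra and Gpr17 were not among the 20 highest without them, and Vwa3b, Cecr2, Cxcl12, Sema5a and Filip1 took their places. Pdgfra, the growth factor receptor that marks oligodendrocyte precursors, had a ratio of granule over other neurons of 4.81 in GlaKO and 3.63 in wt, and of 0.85 and -0.22 without the mixed barcodes. Cxcl12, a chemokine, was at 157 CPM in GlaKO and 198 CPM in wt granule neurons, against 21.3 and 9.14 CPM in other neurons. Its values in other neurons rest on 13 UMIs in GlaKO and 2 in wt. Sema5a, an axon guidance molecule, was at 545 CPM in GlaKO and 456 CPM in wt, against 54.2 and 59.4 CPM.

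**Figure D2:**
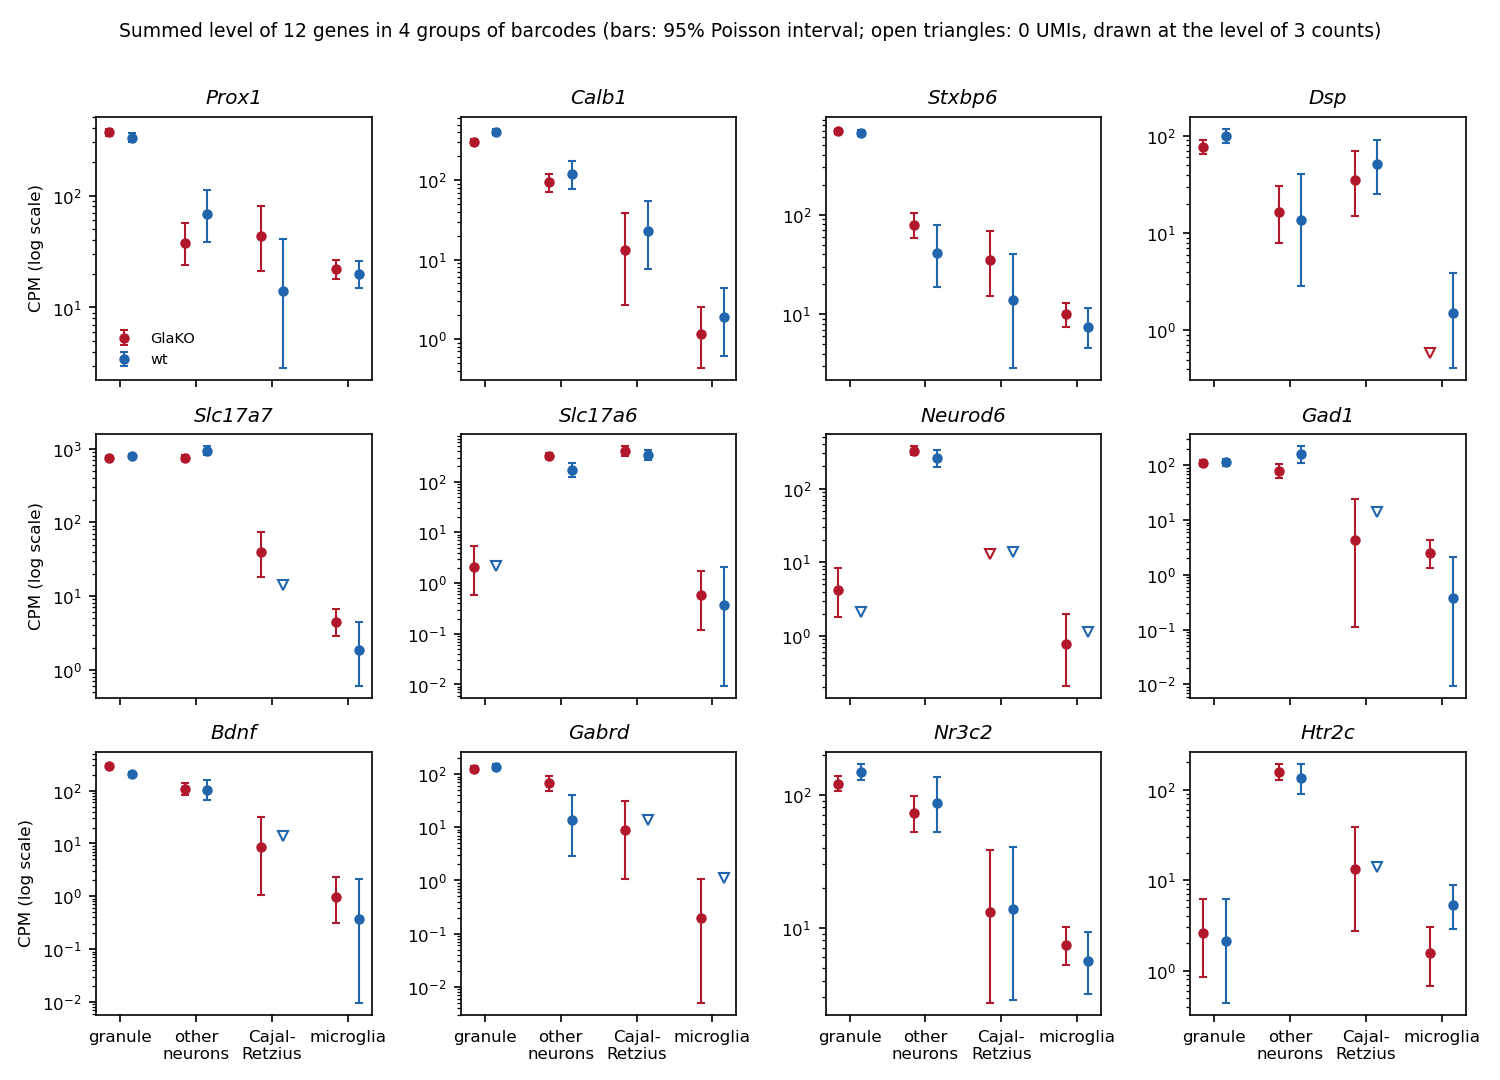
Level of 12 genes in CPM on a log scale, with GlaKO in red at the left and wt in blue at the right of each pair, in granule neurons, other neurons, Cajal-Retzius cells and barcodes with microglial markers. Points are summed UMIs over total UMIs of a group, bars are 95% Poisson intervals, and open triangles mark 0 UMIs drawn at the level of 3 counts. Prox1, Calb1, Stxbp6 and Dsp are higher in granule neurons than in the 3 other groups, while Slc17a6, Neurod6 and Htr2c are lower in granule than in other neurons.

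Genes of pyramidal and subicular neurons were mostly lower. Of 7 genes counted of the pyramidal and subicular list, 5 were lower in granule than in other neurons in both libraries and 0 higher. Median log2 ratios were -4.76 in GlaKO and -4.04 in wt, and over all genes 8.09% were lower and 9.92% higher. Neurod6 had 8 UMIs in 3 of the 282 GlaKO cells and 0 in wt granule neurons, against 198 UMIs in 49 of 89 and 57 UMIs in 19 of 34 other neurons. Tshz2, a zinc finger factor, had 47 UMIs in 13 GlaKO and 2 UMIs in 2 wt granule neurons, against 526 and 123 UMIs in other neurons. Vip, an interneuron peptide, had 0 UMIs in GlaKO and 1 in wt granule neurons, and its 114 and 31 UMIs among other neurons sat in 2 and 1 cells. Of the interneuron list 4 genes were counted, with Vip lower and Adarb2 higher in both libraries. Adarb2, an RNA-binding protein of interneurons, was at 202 CPM in GlaKO and 226 CPM in wt granule neurons, against 41.1 and 54.9 CPM in other neurons.

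The transmitter genes were those of excitatory cells, with 1 gene of GABA synthesis beside them. Slc17a7, the vesicular glutamate transporter VGLUT1, was at 753 CPM in GlaKO and 795 CPM in wt granule neurons, in 94.7% and 97.0% of cells, against 754 and 937 CPM in other neurons. Slc17a6, the transporter VGLUT2 of other excitatory neurons, had 4 UMIs in GlaKO and 0 in wt granule neurons, against 199 and 38 UMIs in the fewer other neurons. Gad1, which encodes the GABA-synthesising enzyme GAD67, was at 111 CPM in GlaKO and 113 CPM in wt granule neurons, in 47.2% and 41.5% of cells.

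The share of cells with Gad1 was higher in granule neurons than in the groups set beside them. With cells thinned to 2000 UMIs it was seen in 22.1% of GlaKO (17.4 to 27.5%) and 18.6% of wt granule neurons (14.0 to 23.9%), against 9.09% and 6.06% of other neurons and 0.55% and 0 of microglial barcodes. Gad2, the second enzyme, had 5 UMIs in 4 GlaKO granule neurons and is listed for the GlaKO library only. Among other neurons Gad1 had 48 UMIs in 10 GlaKO and 35 UMIs in 2 wt cells. By summed level in CPM, Gad1 was thus lower in other than in granule neurons in GlaKO but higher in wt.

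Genes of young neurons were divided. Dcx, which marks immature neurons, was seen in 3.55% of GlaKO and 4.07% of wt granule neurons, and in 16.9% and 35.3% of other neurons. Sox11, a transcription factor of young neurons, was seen in 37.6% of GlaKO and 29.3% of wt granule neurons. Tubb2b, a tubulin of growing neurons, was at 82.7 CPM in GlaKO and 58.8 CPM in wt granule neurons, against 29.6 and 32.0 CPM in other neurons. Its GlaKO level was above that in wt only with the mixed barcodes, as the log2 ratio was -0.15 without them. The list had medians over other neurons of 1.08 in GlaKO and 0.41 in wt over 5 genes, with 1 higher and 1 lower in both libraries. Over all genes 9.92% were higher and 8.09% lower. Eomes, a gene of neuronal precursors, had 0 UMIs in granule neurons of either library. Calb2, a gene of mossy cells and of young granule neurons in the mouse, had 15 UMIs in 10 GlaKO and 3 UMIs in 2 wt granule neurons. The mossy cell list had 0 genes with enough UMIs to be counted.

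Of the receptors for glutamate, single subunits differed. Gria1, an AMPA receptor subunit, was at 748 CPM in GlaKO and 731 CPM in wt granule neurons, against 233 and 439 CPM in other neurons, with ratios of 1.68 in GlaKO and 0.74 in wt. Grin2a, an NMDA receptor subunit, had ratios of 0.88 in GlaKO and 0.63 in wt. Grin1, the subunit every NMDA receptor needs, was lower, at -0.59 and -0.65, as was Gria4, at -1.83 and -3.10. Of 13 subunits counted, 2 were higher in granule than in other neurons past 1.5-fold in both libraries and 3 lower, with medians of 0.03 in GlaKO and -0.15 in wt, beside 9.92% and 8.09% of all genes.

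Of 12 genes of GABA receptors and gephyrin counted, 3 were higher in granule than in other neurons and 1 lower. Over all genes the shares were 9.92% higher and 8.09% lower. Gabrd, the delta subunit of extrasynaptic receptors that carry tonic inhibition, was at 125 CPM in GlaKO and 136 CPM in wt granule neurons, against 67.3 and 13.7 CPM in other neurons. Gabra4, its usual partner in the dentate gyrus, was at 261 CPM in GlaKO and 229 CPM in wt, against 135 and 128 CPM, and Gabra2 at 449 and 431 CPM, against 200.3 and 242 CPM. The wt value of Gabrd in other neurons rests on 3 UMIs.

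On the receiving side of the synapse 9 of 33 genes were higher in granule than in other neurons and 4 lower, where the shares over all genes were 9.92% and 8.09%. Ppp3ca, the catalytic subunit of calcineurin, was at 3610.3 CPM in GlaKO and 2966 CPM in wt granule neurons, against 1498 and 1262 CPM in other neurons. Lrrtm4, a synapse organiser that binds heparan sulphate, was at 322 CPM in GlaKO and 400 CPM in wt, against 75.5 and 151 CPM. On the releasing side 4 of 33 were higher, among them Ppfia2 (1.68 in GlaKO and 1.44 in wt) and Erc2 (1.66 and 1.45) of the active zone, and 10 were lower. Sv2b, a vesicle protein, was the lowest of these after Slc17a6, with 17 UMIs in GlaKO and 4 in wt granule neurons, against 135 and 35 in other neurons. Other neurons had to hold 10 UMIs of the release genes Snap25 and Syt1 and granule neurons only 2. The counts of release genes thus compare groups chosen at unlike limits of such genes.

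Of 33 potassium and HCN channel genes 4 were higher in granule neurons, including Kcnk1, Kcnj6 and Kcnip2, and 11 lower, among them Hcn2, a pacemaker channel, and Kcnn2, a calcium-activated potassium channel. Of 19 sodium and calcium channel genes 1 was higher and 4 lower. The higher counts lie near or below the 9.92% of all genes, and the lower ones above the 8.09%. Kcnk1, a leak channel, was at 273 CPM in GlaKO and 340.2 CPM in wt granule neurons, against 107 and 119 CPM in other neurons. Scn1a, a sodium channel, was at 81.6 CPM in GlaKO and 74.4 CPM in wt, against 240 and 251 CPM.

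Of 13 genes of peptides, growth factors and vesicular zinc counted, 3 were higher in granule than in other neurons and 7 lower, where the shares over all genes were 9.92% and 8.09%. Bdnf, a growth factor stored in mossy fibres, was at 297 CPM in GlaKO and 204 CPM in wt granule neurons, against 108 and 105 CPM in other neurons. Slc30a3, the transporter that loads zinc into vesicles, was at 271 CPM in GlaKO and 306 CPM in wt, against 166 and 160 CPM. Cck, the peptide cholecystokinin, was at 238 CPM in GlaKO and 258 CPM in wt, against 2442 and 2295 CPM in other neurons. The lower ones also included the granins Chgb and Scg3 and the convertase Pcsk2.

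Of 10 receptors for monoamines, peptides and steroids counted, 2 were higher in granule than in other neurons and 3 lower. Their medians were -0.14 in GlaKO and -0.20 in wt, and over all genes 9.92% were higher and 8.09% lower. Nr3c2, the mineralocorticoid receptor, was at 121 CPM in GlaKO and 149 CPM in wt granule neurons, against 72.3 and 86.9 CPM, while Nr3c1, the glucocorticoid receptor, had ratios of -0.37 in GlaKO and -0.81 in wt. Fkbp5, a chaperone of these receptors that glucocorticoids induce, was at 67.9 CPM in GlaKO and 68.8 CPM in wt, against 26.3 and 36.6 CPM, while Tsc22d3 and Per1 of the same glucocorticoid-responsive list were lower. Htr2c, a serotonin receptor, had 5 UMIs in GlaKO and 3 in wt granule neurons, against 96 and 29 in other neurons.

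Most genes of cholesterol synthesis and uptake were lower in granule neurons. Of 15 genes counted, 10 were lower than in other neurons past 1.5-fold in both libraries and 0 higher, where 8.09% of all genes were lower, with median ratios of -1.02 in GlaKO and -1.10 in wt. Hmgcs1, which makes the HMG-CoA of the pathway, was at 48.4 CPM in GlaKO and 45.4 CPM in wt granule neurons, against 186 and 165 CPM. Sqle, squalene epoxidase, was at 24.2 CPM in GlaKO and 20.6 CPM in wt, against 80.5 and 96.0 CPM. Of lysosomal hydrolases 2 of 24 were lower and 0 higher, with medians of -0.32 in GlaKO and -0.22 in wt.

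**Figure D3:**
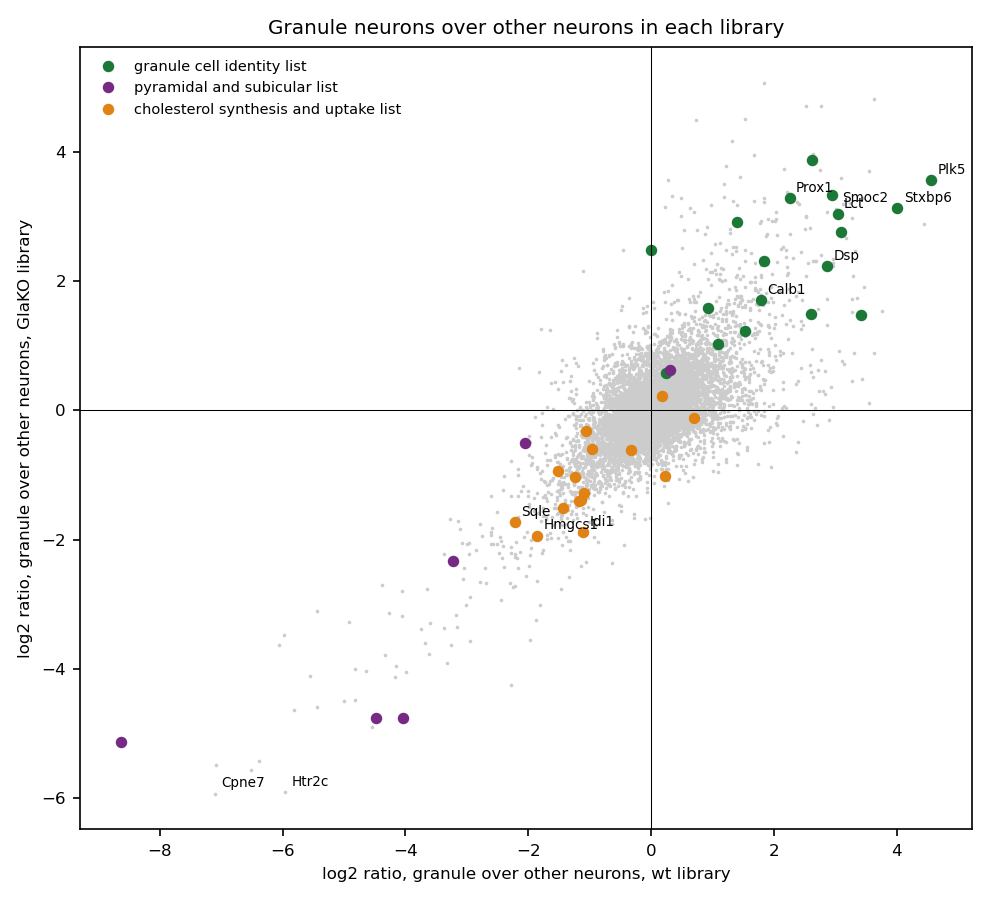
Log2 ratio of granule over other neurons for each gene, in the wt library along the horizontal axis and in the GlaKO library along the vertical axis. Granule cell identity genes (green) lie at the upper right, with Prox1 at 3.28 in GlaKO and 2.26 in wt, pyramidal and subicular genes (purple) mostly at the lower left, and cholesterol synthesis genes (orange) below 0 in most cases. Genes with 0 UMIs in a group, such as Neurod6 in wt granule neurons, cannot be drawn.

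Between the genotypes, most genes differed by less than 1.5-fold in granule neurons. Of 6540 genes with at least 100 UMIs over both libraries, 194 (2.97%) were past 1.5-fold higher in GlaKO (log2 ratio above 0.58) and 81 (1.24%) past 1.5-fold lower, around a median log2 ratio of -0.00. Without the mixed barcodes 6032 genes reached 100 UMIs, of which 118 (1.96%) were higher and 86 (1.43%) lower. Of the 194 higher genes 123 (63.4%) stayed past the limit without the mixed barcodes, and of the 81 lower genes 60 (74.1%).

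Many of the highest genes moved with the mixed barcodes. Of 6475 genes seen in at least 10 granule neurons of each library and not carried by a single cell, the 12 highest in GlaKO included Hbb-bs, Scrg1, 3110035E14Rik, Ccnd1, Cnp, Klhdc1, G0s2, Sox4, Cdo1, Cadm4 and Pabpc1. Scrg1 was at 73.2 CPM in GlaKO and 27.6 CPM in wt, and at 5.93 and 7.07 CPM without the mixed barcodes, where its ratio of 1.40 became -0.25. Ccnd1, a cyclin of dividing precursors, was at 100.5 CPM in GlaKO and 42.5 CPM in wt, and at 41.5 and 28.3 CPM without them, a ratio of 0.56 (-0.04 to 1.18). Of the 12 highest, 4 were also among the 12 highest without the mixed barcodes, including Hbb-bs, Cnp and Pabpc1.

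Hbb-bs, Cnp and Pabpc1 were also higher in GlaKO over all other barcodes. Hbb-bs, a haemoglobin chain of red blood cells, was at 56.3 CPM in GlaKO and 14.9 CPM in wt granule neurons, a log2 ratio of 1.92 (1.24 to 2.67). Over all other barcodes Hbb-bs was at 476 CPM in GlaKO and 14.0 CPM in wt, a ratio of 5.09. Cnp, an enzyme of myelin, was at 109 CPM in GlaKO and 46.8 CPM in wt, a ratio of 1.23 (0.82 to 1.65), and had a ratio of 0.99 over all other barcodes. The part of RNA from myelin and blood cells in these values was not tested.

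Pabpc1, which binds the poly(A) tail of messenger RNA, was at 251 CPM in GlaKO, in 207 cells, and 113 CPM in wt, in 114 cells. Its ratio was 1.15 (0.89 to 1.41), 1.23 without the mixed barcodes, 1.22 over all other barcodes and 1.51 in other neurons. The level was thus higher in GlaKO in each group of cells looked at. Pabpc1 has near-identical copies in the mouse genome, which the authors' counting could split in ways not given in the sources used here.

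Genes that reached the 12 highest only without the mixed barcodes were Ino80b, Gm16105, Ppp2r3a, Ttbk2, Nme7, Smpd3, Grik4 and Gatm. Smpd3, the neutral sphingomyelinase that makes ceramide, was at 231 CPM in GlaKO and 116 CPM in wt, a ratio of 0.99 (0.73 to 1.26) and 1.02 (0.75 to 1.30) without the mixed barcodes, and 1.84 over all other barcodes. Nme7, a protein of the centrosome, was at 174 CPM in GlaKO and 93.6 CPM in wt, with 0.89 (0.60 to 1.20) and 1.02 without the mixed barcodes. Its ratio was 1.67 in other neurons and 0.14 over all other barcodes. Klhdc1 had the same shape, with 43.7 CPM in GlaKO and 19.1 CPM in wt granule neurons, a ratio of 1.19, 1.84 in other neurons and -0.24 over all other barcodes. Gm16105 lies antisense to Celf5, whose reads cannot be told apart from it if strand was not used.

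**Figure D4:**
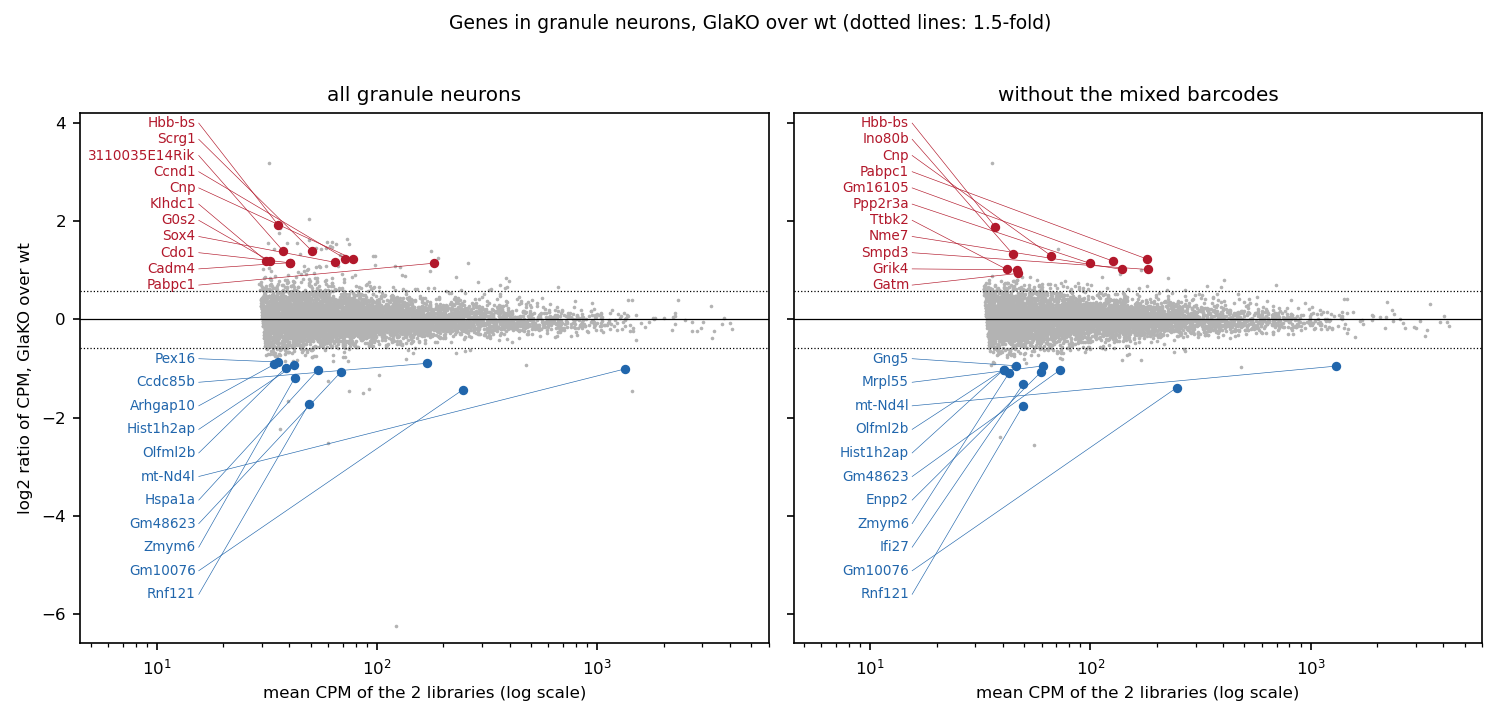
Log2 ratio of GlaKO over wt for each gene in granule neurons, against its mean CPM in both libraries on a log scale, over all granule neurons (left) and without the mixed barcodes (right). The named genes among the 12 highest are red and those among the 12 lowest blue, and dotted lines mark 1.5-fold. Grey points beyond the named ones are mostly genes of which 1 cell held over 20% of a library's UMIs or that were seen in under 10 cells of a library, such as Lyz2 at -6.25, with 90.6% of its wt UMIs in 1 cell.

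The 12 lowest in GlaKO included Rnf121, Gm10076, Zmym6, Gm48623, Hspa1a, mt-Nd4l, Olfml2b, Hist1h2ap, Arhgap10, Ccdc85b and Pex16, and 8 of the 12 were also among the 12 lowest without the mixed barcodes. Ifi27, Enpp2, Mrpl55 and Gng5 took the other 4 places. Rnf121, a ubiquitin ligase of the endoplasmic reticulum and Golgi at 102019137 to 102065469 on the minus strand of chromosome 7 (GRCm38), was at 22.6 CPM in 38 GlaKO cells and 75.1 CPM in 78 wt cells. Its ratio was -1.73 (-2.28 to -1.21), and -1.76 without the mixed barcodes. In other neurons Rnf121 was at 67.3 CPM in GlaKO and 128 CPM in wt, a ratio of -0.93, and over all other barcodes at 22.9 and 22.4 CPM, a ratio of 0.03. Granule and other neurons thus differed the same way, while the summed other cells were near equal, a contrast that was not tested.

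Zmym6, a zinc finger gene on chromosome 4, was lower in both kinds of neuron and higher over all other barcodes. It was at 25.8 CPM in GlaKO and 58.8 CPM in wt granule neurons, a ratio of -1.19 (-1.73 to -0.66), with -1.37 in other neurons and 0.59 over all other barcodes. Zmym1, of the same family, was at 176 CPM in GlaKO and 282 CPM in wt, with ratios of -0.68 in granule neurons, -1.01 in other neurons and 0.15 over all other barcodes. Olfml2b, an extracellular matrix protein, was at 25.8 CPM in GlaKO and 51.0 CPM in wt, a ratio of -0.98 (-1.54 to -0.44), with 0.81 over all other barcodes.

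A second set was lower in GlaKO whichever cells were counted. Gm10076, a short transcript annotated as a lincRNA on chromosome 14, was at 133 CPM in GlaKO and 358 CPM in wt granule neurons, with ratios of -1.43 in granule neurons, -1.23 in other neurons and -1.83 over all other barcodes. The mitochondrial gene mt-Nd4l was at 885 CPM in GlaKO and 1781 CPM in wt, with ratios of -1.01 in granule neurons, -1.02 in other neurons and -1.17 over all other barcodes. It overlaps mt-Nd4, which had the opposite sign, 1632 CPM in GlaKO and 1247 CPM in wt, a ratio of 0.39 (0.30 to 0.47).

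Many lists of neuronal genes had medians close to the all-gene median, but not those of C1q-like proteins (0.59), of pyramidal and subicular neurons (0.49 over 3 counted genes, of which Nr4a2 was past the limit) and of immature granule neurons (0.46). Genes of granule cell identity had a median ratio of -0.12 over 19, with 1 past the limit, Tdo2, a tryptophan-degrading enzyme, at 27.4 CPM in GlaKO and 48.9 CPM in wt (-0.84, -1.39 to -0.30). Calb1 was at -0.42 (-0.59 to -0.26) and Prox1 at 0.16 (-0.01 to 0.33). Subunits of GABA receptors with gephyrin had a median of 0.00 over 12, sodium and calcium channels 0.03 over 19, and genes of calcium binding -0.04 over 22, with 0 past the limit in each. Of all genes 2.97% and 1.24% were past it in the higher and lower direction.

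Synaptic lists held a few single genes past the limit, which 2.97% of all genes passed upward and 1.24% downward. Nrxn3, the neurexin that receives C1q-like proteins, was at 399 CPM in GlaKO and 259 CPM in wt granule neurons (0.62, 0.44 to 0.81), with 0.68 without the mixed barcodes, 0.81 in other neurons and 1.33 over all other barcodes. Presynaptic genes had a median of 0.11 over 29, and Nrxn3 alone was past the limit. Grik4, a kainate receptor subunit of the mossy-fibre synapse, was at 57.9 CPM in GlaKO and 29.8 CPM in wt (0.96, 0.43 to 1.51), in 31.9% and 14.4% of cells. After thinning, Grik4 was seen in 10.4% of GlaKO (7.05 to 14.5%) and 7.75% of wt cells (4.799 to 11.7%), shares whose intervals overlap, and its thinned ratio was 0.35. C1q-like proteins and their receptors had a median of 0.59 over 7, with 4 past the limit, and of 0.05 over 5 without the mixed barcodes, with 2 past it, Grik4 and Nrxn3.

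C1ql1 was 1 of the 2 that dropped out. It was at 91.1 CPM in GlaKO and 42.5 CPM in wt, and at 6.53 and 4.71 CPM without the mixed barcodes, a gene that oligodendrocyte precursors also express. C1ql2 and C1ql3, which the rule used, were at 919 and 2628 CPM in GlaKO and at 1059 and 3075 CPM in wt, and their ratios of -0.21 and -0.23 are given as a description only. Homer1, a postsynaptic scaffold gene with an activity-induced short form, had a ratio of 1.31, but 47.0% of its GlaKO UMIs sat in 1 cell.

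Of 13 peptide genes counted, 2 were past the limit upward, beside 2.97% of all genes. Pcsk2, the convertase that cuts neuropeptide precursors, was at 809 CPM in GlaKO and 515 CPM in wt (0.65, 0.52 to 0.78), and Vgf, a granin, at 45.8 and 28.4 CPM (0.69, 0.14 to 1.27). Bdnf lay just under it, at 297 CPM in GlaKO and 204 CPM in wt (0.54, 0.34 to 0.75), and just over it without the mixed barcodes, at 325 and 215 CPM (0.59, 0.38 to 0.81). The median of the 13 genes was 0.08. Pcsk2 was higher in GlaKO also in other neurons (0.75) and over all other barcodes (1.34), and Bdnf was at 0.04 in other neurons (-0.66 to 0.80).

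Of the response to unfolded protein and amino acid shortage, Slc38a2, an amino acid transporter, was at 293 CPM in GlaKO and 162 CPM in wt (0.86, 0.63 to 1.09). Asns, asparagine synthetase, was at 52.6 CPM in GlaKO and 90.0 CPM in wt (-0.77, -1.17 to -0.38), and the median of 15 genes was 0.04. Heat-shock genes had a median of 0.17 over 13, with 11 above 0 and 0 past the limit upward, beside 2.97% of all genes. Hspa8, 1 of the 11, was at 1251 CPM in GlaKO and 1089 CPM in wt (0.20, 0.11 to 0.29). Past the limit downward was Hspa1a, at 35.3 CPM in GlaKO and 72.3 CPM in wt (-1.04), and -0.55 without the mixed barcodes. Of 12 mitochondrial genes counted, 9 were below 0 and the median was -0.22. Glucocorticoid-responsive genes had a median of 0.03 over 9, with Per1, a clock gene, at 40.5 CPM in GlaKO and 24.8 CPM in wt (0.71, 0.11 to 1.33).

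The pathways nearest to the missing enzyme centred near the median of all genes. Lysosomal hydrolases and activators had a median of 0.04 over 24 genes, with Gm2a, an activator of ganglioside breakdown, at 78.4 CPM in GlaKO and 46.8 CPM in wt (0.75, 0.32 to 1.19), and Ctsz, a cathepsin, at 53.2 and 94.98 CPM (-0.84, -1.22 to -0.45). Without the mixed barcodes Ctsz was at 48.6 CPM in GlaKO and 65.2 CPM in wt, a ratio of -0.42 (-0.88 to 0.04). Psap, the precursor of the saposins, was at 750 CPM in GlaKO and 709.5 CPM in wt (0.08). Lysosomal membrane genes had a median of -0.00 over 23, with Atp6v0c, a proton pump subunit, lower at 52.1 CPM in GlaKO and 88.6 CPM in wt (-0.77, -1.16 to -0.37).

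Lipid synthesis centred there as well. Genes of ceramide and glycosphingolipid synthesis had a median of -0.03 over 15, with St8sia3, a sialyltransferase of gangliosides, at 70.0 CPM in GlaKO and 46.1 CPM in wt (0.60, 0.17 to 1.05). Ugcg, which makes glucosylceramide, the first step towards the lipids that alpha-galactosidase A degrades, was at 90.5 CPM in GlaKO and 92.9 CPM in wt (-0.04, -0.37 to 0.30). Cholesterol genes had a median of 0.04 over 10 with 0 past the limit, which 2.97% of all genes passed upward and 1.24% downward.

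Lists of other cell types stood farthest from the median of all genes, of which 2.97% were past the limit upward and 1.24% downward. Those of oligodendrocyte precursors had a median of 1.45 over 6 genes, all 6 past the limit, and those of microglia -1.42 over 5 with 4 past it, and without the mixed barcodes neither list had a gene that reached 100 UMIs. Oligodendrocyte genes had a median of 0.56 over 7, and of 0.68 over 6 without the mixed barcodes, with 4 past the limit, including Cnp, Mal and Trf. Astrocyte genes had a median of 0.60 over 5 with 3 past the limit. Without the mixed barcodes their median was 0.37 over 4 with 1 past it. Apoe, a lipid carrier of glia, had a ratio of -1.45, with 55.8% of its wt UMIs in 1 cell, and was at 263 CPM in GlaKO and 264 CPM in wt without the mixed barcodes. Y-linked genes were present in both libraries and had a median of 0.18 over 4. Ntm, an adhesion molecule, had the highest ratio of the adhesion list, at 74.2 CPM in GlaKO and 24.1 CPM in wt (1.62), with 23.5% of its wt UMIs in 1 cell.

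Lists of young-neuron and adhesion genes had medians above 0 with few members past the limit, which 2.97% of all genes passed upward. Genes of immature granule neurons had a median of 0.46 over 4, and of 0.37 without the mixed barcodes, with Sox4, a transcription factor of young neurons and of precursors, past the limit at 89.0 CPM in GlaKO and 39.7 CPM in wt (1.16, 0.72 to 1.63). Without the mixed barcodes Sox4 was at 52.8 CPM in GlaKO and 31.4 CPM in wt, a ratio of 0.75 (0.20 to 1.33). Adhesion genes had a median of 0.17 over 26, with 3 past the limit, and of 0.15 over 24 without the mixed barcodes, with 1 past it, Cntn3. Postsynaptic genes had a median of -0.00 over 32, potassium channels 0.04 over 29, ionotropic glutamate receptors 0.05 over 10 and receptors for monoamines, peptides and steroids 0.11 over 9.

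**Figure D5:**
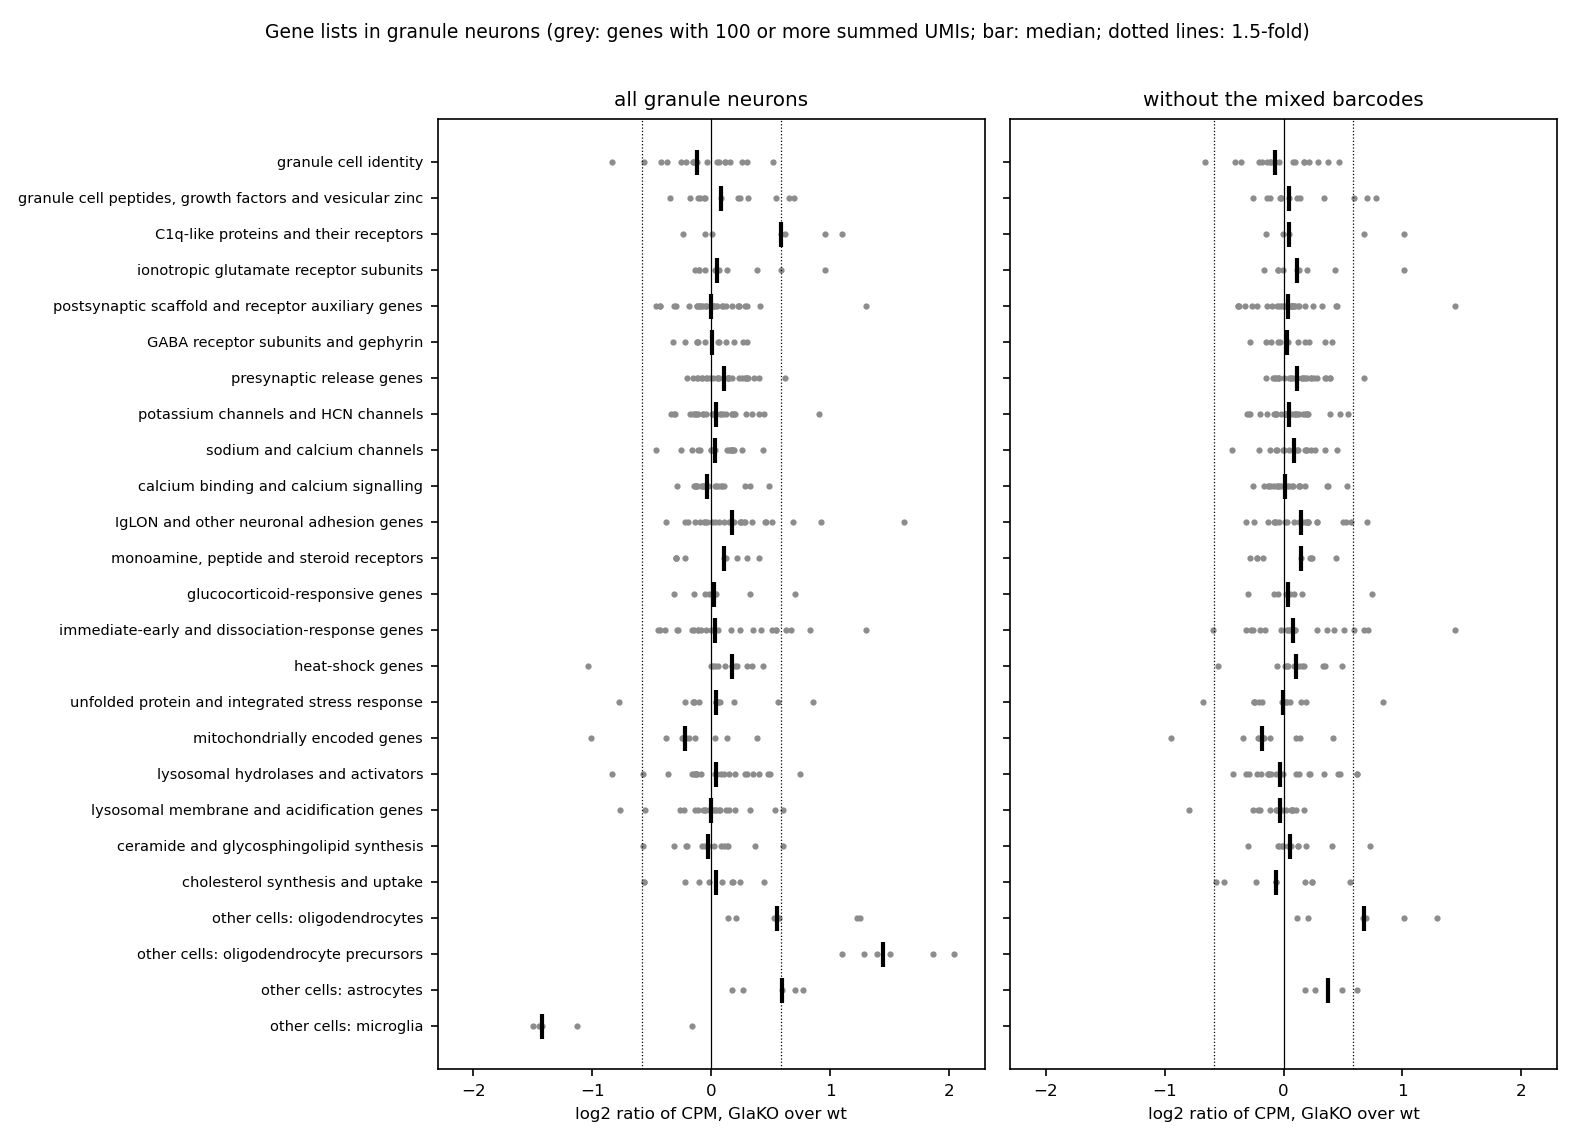
Log2 ratio of GlaKO over wt in granule neurons for each gene with at least 100 UMIs (grey), by gene list, for lists with 5 or more such genes, over all granule neurons (left) and without the mixed barcodes (right). Black bars mark medians and dotted lines 1.5-fold. Lysosomal, lipid and most neuronal lists centre near 0. At the left the list of C1q-like proteins and their receptors stands apart (0.59, against 0.05 at the right). So do those of astrocytes (0.60, against 0.37) and oligodendrocytes (0.56, against 0.68). Those of oligodendrocyte precursors (1.45) and microglia (-1.42) lie farthest out and have no counted gene at the right.

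Cells also varied among themselves. The genes most unevenly spread over the 257 GlaKO and 238 wt unmixed cells, each thinned to 2000 UMIs, were, ranked by the smaller value of both libraries, led by Nrgn, with a Fano factor (variance over mean) of 5.30 in GlaKO and 3.94 in wt, against medians of 1.07 and 1.07 over 2252 genes. Junb, an immediate-early gene, came next, with 3.91 in GlaKO and 4.34 in wt, followed by mt-Cytb with 3.52 and 2.92. Gm13889 was uneven mainly in GlaKO, with 5.18 against 2.39 in wt. Immediate-early genes switch on within minutes of neuronal firing and also during tissue dissociation.

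Most granule neurons held a low sum of immediate-early genes in both libraries. The sum of 10 of them per 2000 UMIs had a median of 3 in GlaKO and 3 in wt, and reached 43 and 48 in single cells. Sums of 20 or more were found in 15 GlaKO and 9 wt cells, of which 7 and 5 were unmixed. In other neurons the median was 3 in both libraries, and in barcodes with microglial markers it was 59 in GlaKO and 55 in wt. Fos, the best known of them, was at 480 CPM in GlaKO and 302 CPM in wt granule neurons (0.67, 0.50 to 0.84), and at 197 and 192 CPM without the mixed barcodes (0.03, -0.21 to 0.28). Arc, a gene of synaptic plasticity, was seen in 8.51% of GlaKO and 7.78% of wt cells, and Npas4, which responds to calcium entry, in 19.1% and 20.7%. Jun was widespread, seen after thinning in 73.9% of GlaKO and 74.0% of wt granule neurons, against 43.2% and 30.3% of other neurons. Of 27 genes of the immediate-early list counted, 5 were higher in granule than in other neurons and 6 lower in both libraries. Over all genes 9.92% were higher and 8.09% lower.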

How the data were processed

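Both libraries were 3' single-cell libraries made with Chromium version 3.1 chemistry, per the labels. The deposited values are raw counts of UMIs per gene and barcode, with genes and barcodes already filtered: the smallest gene total was 14 in GlaKO and 35 in wt. Seurat 4 under R 4.1.3 and Cell Ranger 6.0.1 are listed in the submitters' processing notes, with the build mm10 (GRCm38). Neither the annotation nor the use of strand is given in the sources used here. Gene positions came from GENCODE for that build and promoters from RefSeq.

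Counts were used as deposited. UMIs were summed over the granule neurons of each library and divided by their total (CPM), and log2 ratios carry exact conditional 95% intervals. Summed counts have exact Poisson and shares exact Clopper-Pearson intervals. These take UMIs as independent and cover counting error only, and are too narrow for a gene carried by few cells. The 12744 genes listed for both libraries were compared, and a gene was counted as higher or lower when its summed count reached 100 and its ratio passed 1.5-fold. Levels are compared between groups for 1 gene, not between genes. With 1 library per genotype, no test was run and no p-value was computed. The ratio step was tested on simulated counts.

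The 12 highest and 12 lowest genes were taken among those with at least 100 UMIs, seen in 10 granule neurons of each library, with no cell holding over 20% of a library's UMIs. Against other neurons the 20 highest were taken by the smaller of both ratios and the 10 lowest by the larger. From gene lists, examples were taken among the highest and lowest ratios and highest levels, and some further members were named after their values were seen. The members and the lists were chosen with earlier results of these data known, so no list is independent support. Some genes that these rules take are not reported here. Doublets were not removed. Scrublet in scanpy 1.11.5 marked 70 GlaKO barcodes (1.53%) and 25 wt barcodes (0.459%), under the level at which it can be said to have worked in wt, and 4 GlaKO and 5 wt marked barcodes were granule neurons, all of them mixed. Alternatives changed the minimum count, the scaling (edgeR 4.0.16 for TMM), the depth and the limits of the rule. Python 3.11.15 with numpy 2.4.6, scipy 1.17.1, pandas 2.3.3 and matplotlib 3.10.9 was used.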

Additional observations from a re-analysis of the deposited data

Results flagged for a closer look

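Some genes moved in opposite directions between GlaKO and wt in granule neurons and in other neurons, each past its own counting interval. This held for 7 of 6540 genes, of which 6 were higher in GlaKO granule neurons and 1 was lower. The difference between the groups of neurons was not tested, since each rests on 1 library per genotype. Tmem176a had a log2 ratio of 0.66 in granule neurons and -2.28 in other neurons, a gap of 2.94, on 4 GlaKO and 7 wt UMIs in other neurons. The gap was 2.81 for 3110035E14Rik (1.40 in granule and -1.41 in other neurons) and 1.90 for Ptprz1 (0.84 and -1.06). For Nr4a2, an immediate-early transcription factor, it was 1.54 (0.63 and -0.91), for Fos 1.37 (0.67 and -0.71) and for Slc1a2, a glutamate transporter, 1.21 (0.60 and -0.61). Spns1, a lysosomal lipid transporter, ran the other way with a gap of -1.95 (-0.75 and 1.21). Without the mixed barcodes the ratio in granule neurons was 0.92 for Tmem176a, 0.64 for 3110035E14Rik, 0.14 for Ptprz1, 0.67 for Nr4a2, 0.03 for Fos, 0.49 for Slc1a2 and -0.89 for Spns1.

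Genes listed for 1 library only took no part in the ratios and were also seen in granule neurons. Among those listed for GlaKO only, the highest were Kcns2 with 84 UMIs in 69 cells, Fstl4 with 80 UMIs in 66 cells, Gm26652 with 80 UMIs in 67 cells, Robo3 with 80 UMIs in 49 cells and Kcng1 with 76 UMIs in 62 cells. Among those listed for wt only they were Nek10 with 21 UMIs, Lrrc6 with 20 UMIs, Ccbe1 with 19 UMIs, Nphp4 with 17 UMIs and Pm20d2 with 16 UMIs. Which of these genes were filtered out before deposit in the other library cannot be told apart from their being unseen there.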

How the results depend on the processing

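No paired analysis was possible because each genotype is 1 library, and for the same reason no library could be left out. When every barcode was thinned to 2000 UMIs before the rule was applied, it found 221 granule neurons in GlaKO and 208 in wt. The number of genes past 1.5-fold followed the counts allowed in: 1467 higher and 1194 lower in GlaKO with no minimum, 440 and 206 with a minimum of 50 UMIs, and 38 and 13 with a minimum of 300. With cells thinned to 2000 UMIs it was 480 higher and 350 lower, and without the mixed barcodes, an alternative added after the data were seen, it was 118 higher. Against other neurons the thinned counts were 357 higher and 207 lower. The ratio of Scrg1 changed sign without the mixed barcodes (-0.25), that of G0s2 with stricter limits of the rule (-0.79) and without the mixed barcodes (-1.08), that of Pdgfra over wt other neurons without them (-0.22) and that of Gpr17 over GlaKO other neurons (-0.47). Of the medians of lists, 402 values under alternatives stayed within the spread of the list's own genes and 5 moved. That spread is wide for short lists, so staying within it says little about stability. The median of C1q-like proteins and their receptors counted as staying, though it went from 0.59 to 0.05 without the mixed barcodes. Lists left with too few counted genes, such as those of oligodendrocyte precursors and microglia without the mixed barcodes, were not compared. TMM scaling moved the median of all genes to -0.01.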

Other observations

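Some genes with large differences were kept from the named genes because 1 cell held over 20% of a library's UMIs, and their values are given here without a reading. Gm26825 was at 17.9 CPM in 25 GlaKO and 102 CPM in 69 wt granule neurons, a log2 ratio of -2.51, with 20.6% of its GlaKO UMIs in 1 cell. Its ratio was -2.57 without the mixed barcodes, -1.48 in other neurons and -1.12 over all other barcodes. Zfp287, a zinc finger gene, was at 12.6 CPM in GlaKO and 59.5 CPM in wt, with 76.2% of its wt UMIs in 1 cell. Gm26870 was at 58.4 CPM in GlaKO and 6.38 CPM in wt, with 44.1% of its GlaKO UMIs in 1 cell. These genes were chosen after their values were seen.

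Genes of the choroid plexus that the rule used only as an upper limit differed between the libraries in granule neurons too. The rule held their sum under 8 UMIs in every granule neuron. Their values there are thus capped by the choice of cells and are a description only. Calml4 was at 8.42 CPM in 16 GlaKO and 38.3 CPM in 46 wt granule neurons, a ratio of -2.18 (-3.09 to -1.36). Over all other barcodes Calml4 was at 395 CPM in GlaKO and 964 CPM in wt, a ratio of -1.29. Cox8b was at 2.11 CPM in 3 GlaKO and 24.8 CPM in 34 wt granule neurons, against 188 and 723 CPM over all other barcodes. The part of free RNA in these values was not tested.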
